A study of Mus musculus with 4 samples.

Results

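The Sprouty genes Spry1, Spry2 and Spry4 and the Spred genes Spred1, Spred2 and Spred3 encode feedback inhibitors of the Ras/MAPK pathway. They were followed here in 4T1Ch9 tumors, a cherry-tagged mouse triple-negative breast cancer (TNBC) line grown in Balb/c mice, through all probe sets whose only gene symbol in the platform annotation is one of these 6. They are 6 of the 17097 genes so annotated, with 18 probe sets of 45037 tested: 1 for Spry1, 2 for Spry2, 4 for Spry4, 5 for Spred1, 5 for Spred2 and 1 for Spred3. Probe sets were taken by symbol, without use of their values, but the gene family was chosen with earlier results of these data known. Mice carried tumors grown from 50000 cells injected in the mammary fat pad. After 10 days of growth they received vehicle (polyethylene glycol and solutol) or trametinib, an inhibitor of the kinases MEK1 and MEK2 (MEKi), at 1 mg/kg daily for 7 days. Bulk RNA of whole tumors was hybridized to Affymetrix MG-430PM arrays, 2 labelled MEKi and 2 labelled vehicle. No source used here says whether the 2 arrays of a label came from separate mice. The p-values therefore cover the spread among these 4 arrays alone, which may not be the spread between mice.

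Growth factor receptors activate Ras, which recruits the Raf kinases and leads through MEK1 and MEK2 to ERK. ERK in turn induces genes that damp the same pathway. Sprouty proteins are cytoplasmic inhibitors that act between the receptor and Raf, in part by binding the adaptor Grb2 and the ubiquitin ligase Cbl. Spred proteins carry an N-terminal EVH1 domain and the Sprouty-related cysteine-rich C-terminus, and Spred1 brings neurofibromin, the Ras GTPase-activating protein encoded by Nf1, to the membrane. Transcription of several of these genes is known to depend on ERK activity, and they are often read as a measure of pathway output.

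As an example of the regulatory sequence in front of these genes, the 250 bases upstream of the annotated start are shown for Spred1 and Spred2, the members whose window holds an ETS-type match, and for Spry1, whose level differed most among the arrays. ETS factors are DNA-binding proteins phosphorylated or induced downstream of ERK. The letters searched were chosen after the windows had been seen. Capitals mark the match to CGGAAG or its reverse complement. Sequences are RefSeq, build GRCm38.p6, 5′ to 3′ in the direction of transcription, from chr2:117120821-117121070, plus strand (Spred1), chr11:19924192-19924441, plus strand (Spred2), and chr3:37639697-37639946, plus strand (Spry1).
Spred1: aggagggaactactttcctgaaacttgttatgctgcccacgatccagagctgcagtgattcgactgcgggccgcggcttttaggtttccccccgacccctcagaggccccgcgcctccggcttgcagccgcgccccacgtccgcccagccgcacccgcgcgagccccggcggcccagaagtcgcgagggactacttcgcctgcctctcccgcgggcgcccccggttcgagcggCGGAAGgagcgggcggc
Spred2: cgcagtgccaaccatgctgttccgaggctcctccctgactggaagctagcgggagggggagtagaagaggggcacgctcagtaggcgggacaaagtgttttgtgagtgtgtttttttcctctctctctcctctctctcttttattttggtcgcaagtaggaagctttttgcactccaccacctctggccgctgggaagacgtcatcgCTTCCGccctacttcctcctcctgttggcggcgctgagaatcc
Spry1: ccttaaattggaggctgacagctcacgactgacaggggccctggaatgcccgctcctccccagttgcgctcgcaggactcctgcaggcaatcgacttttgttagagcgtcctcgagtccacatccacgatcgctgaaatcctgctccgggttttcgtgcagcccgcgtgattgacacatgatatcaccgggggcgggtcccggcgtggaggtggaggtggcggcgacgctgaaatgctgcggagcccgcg

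The match in Spred1 begins 17 bases before the start and that in Spred2 begins 43 bases before it, on the opposite strand. CGGAAG was found in 2 of the 5 member windows searched (Spry1, Spry2, Spred1, Spred2 and Spred3), and in 13.6% of the 32851 promoter windows of the same length. The Spred3 window (chr7:29168648-29168897, minus strand) precedes a start that lies inside the gene span given below, unlike the windows of the other 4 genes. The other patterns searched, also on both strands, were CCGGAA, an ETS pattern that overlaps CGGAAG by 5 letters and was held by 3952 of all windows (12%), the AP-1 pattern TGANTCA (6.75%), the cyclic AMP response element TGACGTCA (1.55%) and the E-box CACGTG (6.02%). Each of these was found in 0 of the 5 member windows. The windows are short, and no match says only that these letters are not within them.

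The arrays did not group by label. Across the 45037 probe sets, Pearson's r was 0.992 between MEKi 1 and vehicle 2 and 0.978 between MEKi 2 and vehicle 1, against 0.927 between both MEKi arrays and 0.959 between both vehicle arrays. The labels were kept as deposited, each array is named by its label, and the result of each member by label is given with each array left out in turn. Whether any array carries the label of another cannot be settled from the files, so every difference by label below, its direction included, holds only if the labels are right. Tumor epithelial markers were present in all 4 arrays, with a median log2 expression of 12 genes between 6.46 (MEKi 2) and 8.49 (vehicle 1). Within this list the keratin gene Krt8 was lowest in MEKi 1 (10.54), whereas Epcam, an epithelial adhesion gene, was lowest in MEKi 2 (6.54). The keratin gene Krt19 had the widest range of the list, at 4.52 in MEKi 2 against 8.91 to 9.42 in the other arrays. Spint1 was highest in MEKi 2 (9.75). By label, all 12 epithelial genes were lower in MEKi, with 0 called. The medians of the skeletal muscle genes lay between 3.89 and 4.19, and single genes between 3.43 (Tnnt3 in vehicle 1) and 4.67 (Acta1 in MEKi 2), around or somewhat above the 25th percentiles of the arrays (3.85 to 3.88), which were used as a guide to the floor.

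Each of the 6 genes had its lowest level in MEKi 1 and its highest in MEKi 2, with both vehicle arrays between them. For genes with several probe sets, the brightest over the 4 arrays stands for the gene here and below. Values are log2 expression on the RMA scale, which allows a probe set to be compared between arrays but not with another probe set. In RefSeq (GRCm38.p6), Spry1 lies on chr3:37639947-37644599, Spry2 on chr14:105891947-105896819, Spry4 on chr18:38586247-38601347, Spred1 on chr2:117121071-117182279, Spred2 on chr11:19924442-20024026 and Spred3 on chr7:29157783-29170070.

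Spry1, a broadly expressed Sprouty gene that limits signaling from Fgf and Ret receptors in development, read 7.89 in MEKi 1, 8.41 in vehicle 2, 10.13 in vehicle 1 and 11.68 in MEKi 2. The array labelled MEKi 2 stood 13.8-fold above the array labelled MEKi 1, the widest span of the 6 genes, and the vehicle arrays differed 3.29-fold. The labels therefore overlap, with the MEKi arrays outside the vehicle arrays on either side. Spry2, which modulates Fgf and Egf receptor signaling and is itself turned over after binding Cbl, read 6.27 in MEKi 1, 6.70 in vehicle 2, 8.06 in vehicle 1 and 9.45 in MEKi 2. The low pair (MEKi 1 and vehicle 2) and the high pair (vehicle 1 and MEKi 2) are the same as for Spry1. Spry4, known to inhibit Ras/MAPK activation by several receptor tyrosine kinases, read 4.58 in MEKi 1, 5.18 in vehicle 2, 6.43 in vehicle 1 and 7.16 in MEKi 2. The array labelled MEKi 2 stood 5.94-fold above MEKi 1 for Spry4, and 9.03-fold for Spry2.

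The Spred genes gave the same order of arrays, with vehicle 1 closer to MEKi 2. Spred1, the gene mutated in the human RASopathy Legius syndrome, read 8.42 in MEKi 1, 9.02 in vehicle 2, 10.61 in vehicle 1 and 11.05 in MEKi 2. Spred2, a close relative that also restrains ERK activation downstream of growth factor receptors, read 8.07 in MEKi 1, 9.04 in vehicle 2, 9.99 in vehicle 1 and 10.59 in MEKi 2. Here the vehicle arrays lay closest, 1.92-fold apart. Spred3, a less studied member known in mouse mainly from brain, read 4.94 in MEKi 1, 6.02 in vehicle 2, 7.43 in vehicle 1 and 7.68 in MEKi 2. The array labelled MEKi 1 stood apart from vehicle 1 by 5.59-fold for Spred3, the largest such step of the 6 genes, and by 3.45-fold for Spry2, the smallest.

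**Figure D1:**
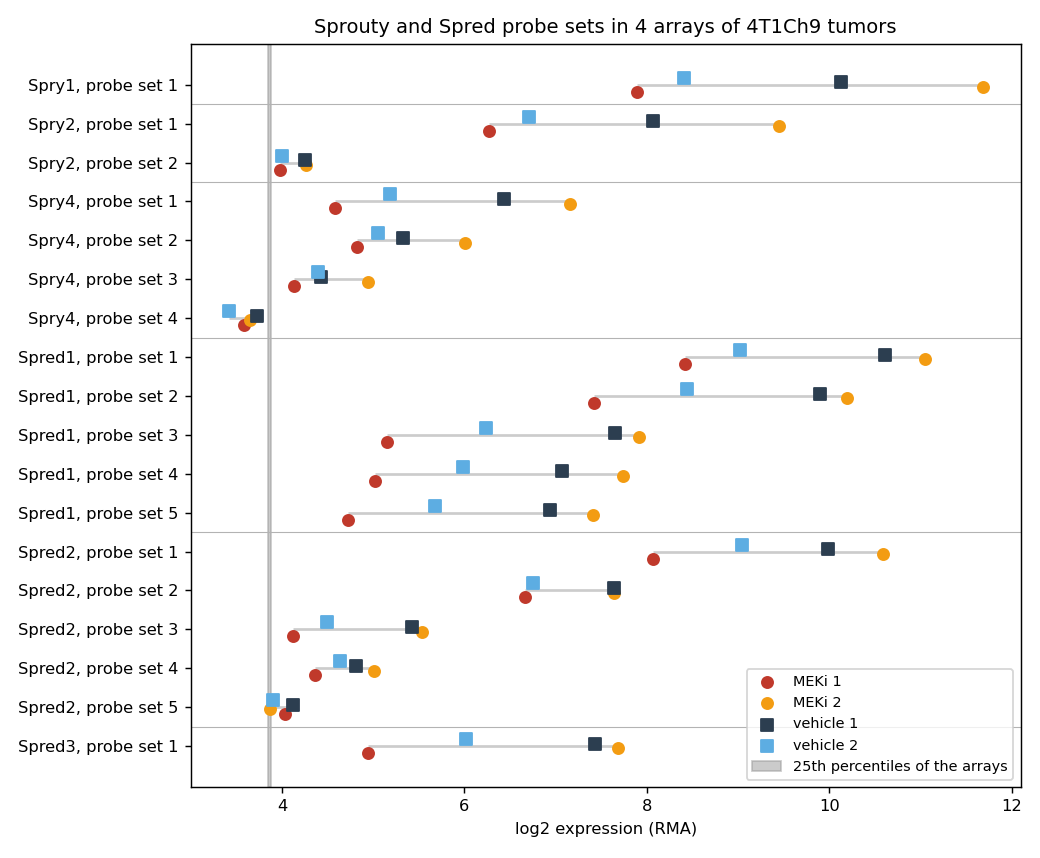
Log2 expression (RMA, horizontal axis) of the 18 Sprouty and Spred probe sets, 1 point per array, with circles for arrays labelled MEKi and squares for arrays labelled vehicle; probe sets of a gene run from the brightest down, points of a row are offset vertically for legibility, and the grey band marks the 25th percentiles of the arrays (3.85 to 3.88). For Spry1 the points run from 7.89 (MEKi 1) to 11.68 (MEKi 2), and 16 of 18 probe sets keep the order MEKi 1, vehicle 2, vehicle 1, MEKi 2.

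Over all probe sets, 16 of 18 kept the order MEKi 1, vehicle 2, vehicle 1, MEKi 2 from low to high, an order held by 11.3% of all tested probe sets. This order was noticed in the data, and the probe sets of 1 gene are not independent of each other. The range over the 4 arrays exceeded 1 log2 unit in 12 of 18, against 22.0% of all tested. The brightest probe sets of the 6 genes spanned 2.52 to 3.79 log2 units, where the median of all tested was 0.51 and the 95th percentile 2.23. Spry1 spanned more than 99.01% of all tested probe sets, and Spred2, the narrowest of the 6, more than 96.4%. All tested probe sets include dim and unnamed ones, whereas each gene here is given by its brightest, so this background is not matched. A background of the brightest probe set of every gene was not computed.

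The 5 probe sets of Spred1 ranged alike, from 2.63 to 2.78 log2 units, and all 5 kept the order. In Spred2, 4 of 5 kept it and 2 of 5 ranged over more than 1 log2 unit. The Spred2 probe set without the order read 3.86 to 4.12 and ranged over 0.26. In Spry4, 3 of 4 kept the order, the other dimmer ones from 4.82 to 6.01 and from 4.13 to 4.95, and the remaining one read 3.42 to 3.73, below the 25th percentiles. The second probe set of Spry2 read 3.98 to 4.27. The probe sets that did not separate the arrays thus include the dimmest of these genes, but a Spred2 probe set reading 6.66 to 7.64 also ranged over only 0.98. Which transcript ends they read was not examined.

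The comparison of MEKi with vehicle asks whether 7 days of MEK inhibition changed these feedback inhibitors. A probe set was called where its fold exceeded 1.5 in either direction with p below 0.05 and adjusted p below 0.1. By label, limma called 0 of the 18 probe sets, beside 0.0% of the 45037 tested. The lowest adjusted p of all tested probe sets was 1. Before adjustment, 0 of the 18 and 406 of all tested (0.901%) had a p under 0.05, and without moderation of variances 0 were called and 1189 lay under 0.05. Both MEKi arrays lay above both vehicle arrays in 0 of 18 probe sets, against 12.1% of all tested, and below them in 0 of 18, against 9.86%.

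Spry1 differed by 0.52 by label as a log2 fold change (limma, adjusted p = 1, with an SE of 1.53), with a 95% interval from −3.85 to 4.89. Its mean was 9.79 ± 2.68 (SD, n = 2) in MEKi and 9.27 ± 1.21 (SD, n = 2) in vehicle, a difference smaller than the SD within either label. Spred3 lay at the other end, at −0.41 on the same scale (limma, adjusted p = 1, with an SE of 1.14) and an interval from −3.66 to 2.84. The values of the other genes were 0.48 for Spry2, 0.06 for Spry4, −0.08 for Spred1 and −0.19 for Spred2, each with an SE between 1.00 and 1.27 and adjusted p = 1 (limma). The intervals are wide, and a p that misses the threshold does not show that the label made no difference. By probe set, 6 of 18 were higher and 12 lower, and the 2 probe sets of Spry2 differed in sign (0.48 and −0.0036). The median over the 6 genes was −0.01, beside 0.01 over all tested probe sets.

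The sign of each gene rested on single arrays. Leaving out MEKi 1 gave values from 0.96 (Spred3) to 2.42 (Spry1), with all 6 genes higher by label, and leaving out MEKi 2 gave values from −1.78 (Spred3) to −1.11 (Spry2), with all 6 lower. Leaving out vehicle 1 gave 0.29 (Spred2) to 1.38 (Spry1), and leaving out vehicle 2 gave −1.11 (Spred3) to −0.20 (Spry2). None of these passed (limma, lowest adjusted p = 0.956). In a fit without an array, the lone array of its label is assumed to vary like those of the other label.

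**Figure D2:**
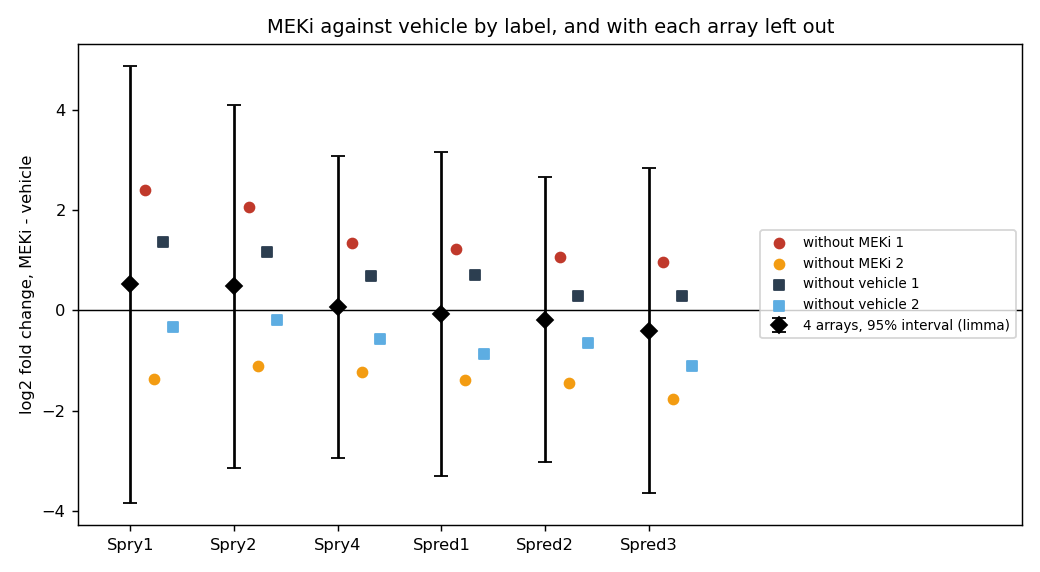
Log2 fold change of MEKi against vehicle by label (vertical axis) for the brightest probe set of each gene; black diamonds with bars are the limma estimate from 4 arrays with its 95% interval, and colored points are the estimate with 1 array left out. Spry1 lies at 0.52 with an interval from −3.85 to 4.89, and all 6 genes lie above 0 without MEKi 1 and below 0 without MEKi 2.

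Set side by side, the 4 possible differences between a MEKi and a vehicle array ran in opposite directions. These differences share arrays, have no replicate and carry no test. The array labelled MEKi 1 was below vehicle 1 in all 6 genes, by a median of −2.05 log2 units (from −2.48 to −1.79), and below vehicle 2 in all 6, by a median of −0.60 (from −1.07 to −0.43). The array labelled MEKi 2 was above vehicle 1 in all 6, by a median of 0.66 (from 0.26 to 1.56), and above vehicle 2 in all 6, by a median of 2.00 (from 1.55 to 3.27). Over all tested probe sets the medians of these differences lay within 0.03 of 0. Within a label, the MEKi arrays differed by a median of −2.68 (MEKi 1 minus MEKi 2) and the vehicle arrays by −1.39 (vehicle 2 minus vehicle 1). In these medians the arrays of 1 label lay farther apart than MEKi 1 from vehicle 2 or MEKi 2 from vehicle 1. The exceptions by gene were Spry2, where MEKi 2 and vehicle 1 differed by 1.39 and the vehicle arrays by −1.36, and Spred2, where MEKi 1 and vehicle 2 differed by −0.97 and the vehicle arrays by −0.94.

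Past 1 log2 unit, MEKi 1 was below vehicle 1 in 11 of 18 probe sets (7.02% of all tested) and below vehicle 2 in 3 of 18 (0.548%), which were Spred3 and 2 probe sets of Spred1. MEKi 2 was above vehicle 2 in 11 of 18 (6.9%) and above vehicle 1 in 2 of 18 (1.59%), which were Spry1 and Spry2. Between arrays of 1 label, MEKi 1 was below MEKi 2 in 12 of 18 (8.07%), and vehicle 1 above vehicle 2 in 9 of 18 (5.39%). For the brightest probe sets, the Sprouty and Spred genes differed in the step from vehicle 1 to MEKi 2 and, barely, in MEKi 1 minus vehicle 2. The step from vehicle 1 to MEKi 2 was larger in the 3 Sprouty genes (1.56 for Spry1, 1.39 for Spry2 and 0.72 for Spry4) than in the 3 Spred genes (0.44 for Spred1, 0.60 for Spred2 and 0.26 for Spred3). MEKi 1 minus vehicle 2 was −0.52, −0.43 and −0.60 for Spry1, Spry2 and Spry4, and −0.60, −0.97 and −1.07 for Spred1, Spred2 and Spred3. In this second step every Sprouty gene lay above every Spred gene, but Spry4 (−0.5960) and Spred1 (−0.5995) nearly coincided. Among the dimmer probe sets the step from vehicle 1 to MEKi 2 overlapped, at 0.67 in a Spred1 and 0.52 in a Spry4 probe set. These are differences between single arrays and were not tested.

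**Figure D3:**
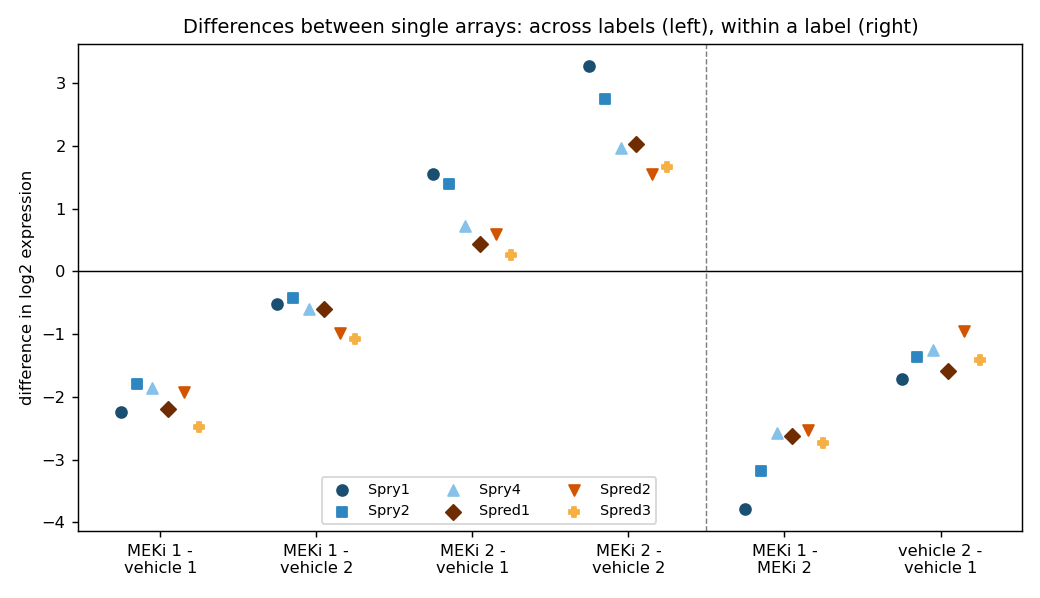
Difference in log2 expression between single arrays (vertical axis) for the brightest probe set of the 6 genes, with the 4 differences across labels left of the dashed line and the 2 within a label right of it. All 6 genes lie below 0 for MEKi 1 against either vehicle array and above 0 for MEKi 2 against either, with Spry1 at 3.27 for MEKi 2 minus vehicle 2.

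The other ERK feedback and output genes shared much of this pattern, but less uniformly. Of 18 other ERK feedback and output genes, limma called 0 by label in either direction, with 6 higher, 12 lower and a median of −0.31. By array their median level on the log2 scale was 7.75 in MEKi 1, 8.64 in vehicle 2, 9.29 in vehicle 1 and 9.70 in MEKi 2, the same order of arrays as for the Sprouty and Spred genes. Single genes kept that exact order in 7 of 18 (38.9%, beside 11.3% of all tested probe sets). The list takes the brightest probe set of each gene, unlike that background. Of the 18, 16 were lower in MEKi 1 than in MEKi 2, and 15 were lower in vehicle 2 than in vehicle 1. The median range of the list was 1.70 log2 units, with 13 of 18 genes over 1. Fosl1, an AP-1 subunit gene, read 4.89 in MEKi 1, 6.56 in vehicle 2, 8.23 in vehicle 1 and 8.08 in MEKi 2. Etv5, an ETS factor gene, read 6.53 in MEKi 1, 8.31 in vehicle 2, 9.36 in vehicle 1 and 9.65 in MEKi 2. Epha2, an Eph receptor gene known as an ERK target, read 6.03 in MEKi 1, 7.54 in vehicle 2, 8.95 in vehicle 1 and 8.93 in MEKi 2. These had the widest ranges of the list, and in Fosl1 and Epha2 vehicle 1, not MEKi 2, was highest.

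Of 14 receptor tyrosine kinase genes, the upstream inputs of the pathway, 0 were called by label (4 higher, 10 lower, median −0.08) and 6 (42.9%) kept the order of the Sprouty and Spred genes. Of the 14, 11 were lower in MEKi 1 than in MEKi 2. Pdgfrb and Pdgfra, receptors of stromal cells, were highest in MEKi 2 (9.82 and 8.49), and Fgfr2 was lowest there, at 4.11 against 6.36 to 6.66 in the other arrays. Of the 17 adaptors, GTPases and kinases between receptor and ERK, 11 were measured under 1 symbol, with 0 called (6 higher, 5 lower, median 0.02) and 2 in that order. The others of the list were not used here. Their median range was 0.56 log2 units, beside 2.68 for the Sprouty and Spred genes. The widest were Shc1, an adaptor (range 1.29), the kinase Araf (1.19) and Grb2, the adaptor that Sprouty proteins bind (1.04, highest in MEKi 1 at 10.22).

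Of 11 genes whose products bind, modify or degrade Sprouty or Spred proteins, 10 were measured (Siah2 was not used here), 0 were called (3 higher, 7 lower, median −0.12) and 2 kept the order. Nedd4, a ubiquitin ligase known to act on Spry2, read 10.73 in MEKi 1, 10.98 in vehicle 2, 12.09 in vehicle 1 and 12.23 in MEKi 2, and so kept it. Cav1, which encodes caveolin-1, ranged over 1.20 with vehicle 1 highest (11.51). Cblb, a relative of Cbl, ran the other way, from 8.45 in MEKi 2 to 9.39 in MEKi 1. Nf1, the partner of Spred1, also kept the order of the Sprouty and Spred genes, but read only 3.47 to 4.39, around the 25th percentiles.

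**Figure D4:**
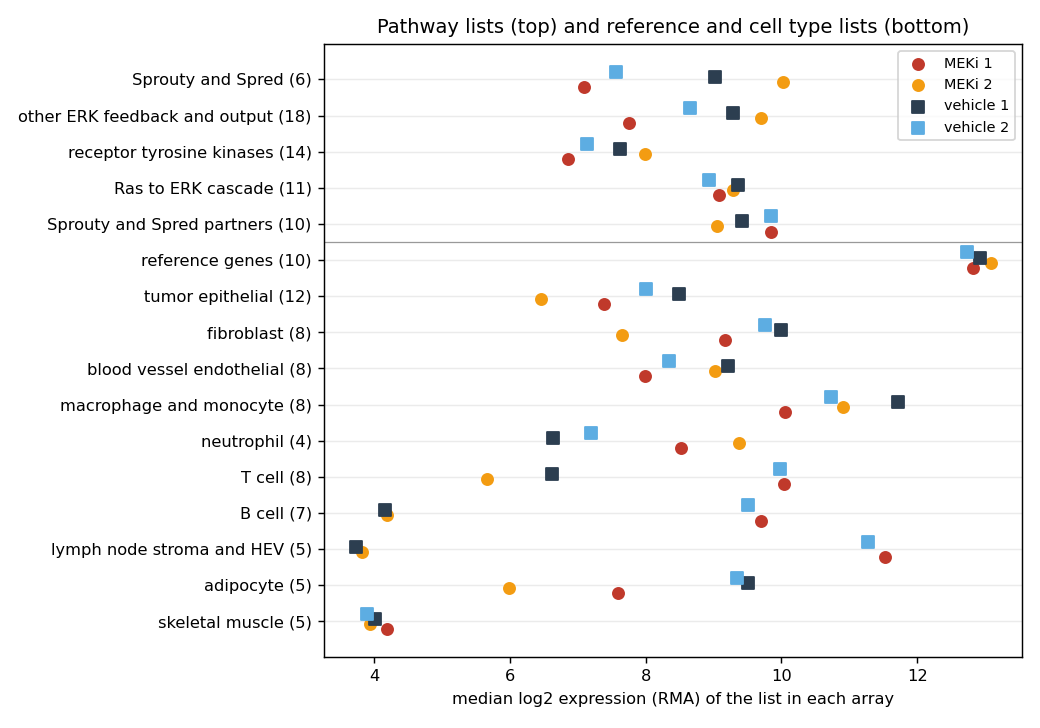
Median log2 expression (RMA, horizontal axis) of each gene list, 1 point per array, and in parentheses how many genes were measured; circles are arrays labelled MEKi and squares arrays labelled vehicle (HEV, high endothelial venules), offset vertically for legibility. The Sprouty and Spred medians run from 7.08 (MEKi 1) to 10.02 (MEKi 2). The reference gene medians lie within 12.74 to 13.08, and the T cell medians are high in MEKi 1 and vehicle 2.

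Markers of other cells moved across the same arrays. All 8 T cell genes were higher in MEKi 1 and in vehicle 2 than in vehicle 1, and all 8 were lower in MEKi 2 than in vehicle 1 and in vehicle 2. Their summed linear level was 11092 in MEKi 1 and 10563 in vehicle 2, against 803 in vehicle 1 and 399 in MEKi 2. Of 8 B cell genes, 7 were measured, with summed levels of 18553 in MEKi 1 and 13277 in vehicle 2, against 342 in MEKi 2 and 567 in vehicle 1, where the B cell gene Ms4a1 was just above the 25th percentiles (3.97 and 4.15). The 5 genes listed for high endothelial venules and lymph node stroma behaved alike, with 12175 and 10114 against 89 and 160. The arrays low in Sprouty and Spred genes were therefore the arrays high in these lymphoid genes. In bulk RNA, fewer cells of a type and less RNA per cell cannot be told apart, and the part of lymphoid cells in the Sprouty and Spred differences was not tested.

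Fibroblast and adipocyte genes followed other orders. The medians of macrophage and endothelial genes shared the low pair and the high pair of the Sprouty and Spred genes. The median of the fibroblast genes was lowest in MEKi 2, at 7.64 against 9.16 to 9.99, although Dcn (11.66) and Pdgfra (8.49) were highest there. The adipocyte median was also lowest in MEKi 2 (5.99 against 7.59 to 9.51), with Pparg as the exception, at 5.69 in MEKi 1 and 6.49 in MEKi 2. The median of the macrophage and monocyte genes was 10.05 in MEKi 1, 10.73 in vehicle 2, 10.91 in MEKi 2 and 11.71 in vehicle 1. Mrc1 and Lyz2 were exceptions, lower in MEKi 2 (11.41 and 12.33) than in vehicle 2 (11.89 and 12.74). Of 6 neutrophil genes 4 were measured, and their median was higher in both arrays labelled MEKi (8.51 and 9.37) than in vehicle 1 (6.63) and vehicle 2 (7.19), an order the Sprouty and Spred genes did not share. Csf3r was the exception, at 7.04 in MEKi 1 and 7.36 in vehicle 1. Blood vessel endothelial genes had medians of 7.98 in MEKi 1, 8.35 in vehicle 2, 9.02 in MEKi 2 and 9.21 in vehicle 1. Pecam1 and Tek were exceptions, lower in MEKi 2 (8.99 and 6.07) than in vehicle 2 (9.20 and 6.85). In the medians of the macrophage and endothelial lists vehicle 1, not MEKi 2, was highest.

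Set against the reference gene median of the same array, all 6 Sprouty and Spred genes were still lowest in MEKi 1 and highest in MEKi 2. Set against the tumor epithelial median, all 6 were again highest in MEKi 2, but 4 of 6 (Spry1, Spry2, Spry4 and Spred1) were then lowest in vehicle 2 and only Spred2 and Spred3 in MEKi 1. On this epithelial scale Spry1 was −1.14 in MEKi 1 relative to vehicle 1, and −4.72 relative to MEKi 2, whose epithelial median was the lowest of the 4 arrays. The same scale moved the median of all probe sets by label by 1.32 log2 units. On that scale the 6 genes differed by 0.91 (Spred3) to 1.84 (Spry1) by label, on both sides of the shift, and none passed (limma, lowest adjusted p = 0.166).

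The genes most like each member were found as the 3 with the smallest Euclidean distance between log2 profiles over the 4 arrays, each centred on its own mean, among 17091 genes. For Spry1 they were Ptgs2, which encodes cyclooxygenase-2 (distance 0.26 log2 units), Adgra3 (0.29) and Ccn2, a matricellular protein gene (0.33). For Spry2 they were Kdelr3 (0.13), Rerg (0.14) and Phlda2 (0.16), and for Spry4 Ier5l (0.08), Map3k20 (0.09) and Gpx8 (0.12). For Spred1 they were Tnfaip2 (0.07), Specc1 (0.09) and Gadd45a, a growth arrest gene (0.12). For Spred2 they were Maff (0.17), Spats2 (0.19) and Agap1 (0.20), and for Spred3 Tnfrsf12a, the TWEAK receptor gene (0.13), Rapgef3 (0.18) and Tm4sf1 (0.18). With 4 arrays that fall into a low and a high pair, many genes share such a profile. Of the 17096 other genes, 14 lay closer to Spry1 than Spry2 did (0.50), 42 lay closer to Spred1 than Spry4 did (0.28), and 845 lay closer to Spred1 than Spry1 did (1.02). Spry4 lay closer to Spred1 (0.28) than to Spry2 (0.60), so the profiles did not divide by family.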

How the data were processed

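RNA of 4T1Ch9 tumors was measured on 4 Affymetrix MG-430PM arrays. The deposited table holds log2 expression of every probe set on every array. Per the submitters' processing notes it was made with RMA, and the study's methods name quantile normalization with the AFFY package in R. Scanner files were not used here. Quantile normalization gives the arrays a like distribution, so a shift of all genes would not be seen. Precision is limited by having 4 arrays.

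After removal of 104 controls from 45141 probe sets, 45037 were tested. The platform annotation gives 28898 of these a single symbol and 551 several, and 15588 are unnamed here. They were all fitted by lmFit and eBayes (limma 3.58.1, R 4.3.3, two-sided), grouped by label, with Benjamini-Hochberg adjustment over all of them. A call needed p under 0.05 with a fold over 1.5, and an adjusted p under 0.1. The study's methods name these values for its gene selection and false discovery rate. They also name a false discovery rate under 0.05 for a short list. At the former thresholds the study reported genes altered by MEKi, but 0 were called here. Why the counts differ was not tested. Lists are described by counts and medians. Named genes were all members, the 3 genes nearest to each, and the 3 of each pathway list with the widest range. Other genes were named after their values were seen. The members, lists and tests were chosen with earlier results of these data known. Promoter windows came from RefSeq (GRCm38.p6), and the motif letters were chosen after the member windows were seen. The alternatives were each array left out, the replicate block, centring on reference or epithelial genes, a stricter adjusted p (0.05), no moderation of variances, a variance trend on intensity, removal of the dimmest probe sets (a share of 0.25), and averaging the probe sets of each gene. Tables were made with pandas 2.3.3 and numpy 2.4.6, and figures with matplotlib 3.10.9, in Python 3.11.15.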

Additional observations from a re-analysis of the deposited data

How the results depend on the processing

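No Sprouty or Spred probe set was called under any alternative run. Over all probe sets the count stayed at 0 except for 18 calls with arrays centred on tumor epithelial genes. With 2 arrays a label, the fit can miss sizeable differences between labels. With the replicate block 0 probe sets were called and Spry1 kept 0.52. In this balanced design a block cannot change the fold change, only its error. Labels give arrays the same numbers, but samples sharing a number deviated in opposite directions (r = −0.764 across probe sets), so the numbers were not taken as pairs. A crossed pairing, added after seeing the data, called 0 as well.

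With each array left out in turn, the log2 fold change by label ran from −1.38 to 2.42 for Spry1, −1.11 to 2.07 for Spry2, −1.22 to 1.35 for Spry4, −1.39 to 1.23 for Spred1, −1.45 to 1.07 for Spred2 and −1.78 to 0.96 for Spred3. The median of the 6 genes ran from −1.38 to 1.29 and that of the other ERK feedback genes from −0.80 to 0.64. Centring on tumor epithelial genes, which moved all probe sets by 1.32, turned Spred1 to 1.24, Spred2 to 1.13 and Spred3 to 0.91, and moved the feedback genes to 1.01. Centring on reference genes, a shift of −0.12, turned Spry4 to −0.057. Averaging the probe sets of each gene kept the sign of all 6 genes. The cause of these changes was not tested.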
